A study of Homo sapiens with 8 samples.

Results

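The experiment described here set MDA-MB-231 cells given an siRNA against VRK1 against MDA-MB-231 cells given a scrambled control siRNA. Its members are 4 of the 8 bead arrays of the series, chosen by their titles: 2 siVRK1 arrays and 2 control arrays of this line. MDA-MB-231 is a breast adenocarcinoma line of mesenchymal appearance, kept here in medium with 10% serum. Cells were plated, left for 24 h, exposed to siRNA in a lipid reagent and harvested after a further 42 h. Every siVRK1 array carries the same siRNA, number 308 in the labels, so an effect of VRK1 loss and an effect of that siRNA on other transcripts cannot be told apart. The labels number the arrays 1 and 2 in each group without saying whether they came from separate dishes, so a p-value here reflects nothing beyond the spread of these arrays, which may be technical. The remaining 4 arrays were siVRK1 and control arrays of the fibrosarcoma line HT1080, with 2 each. They entered the choice of probes, the estimate of the spread and the comparison of the lines near the end.

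VRK1 is a serine/threonine kinase of the nucleus, related to the casein kinase 1 family. It phosphorylates histone H3, the transcription factors JUN, ATF2 and CREB1, p53, and BANF1, the small protein that ties chromatin to the nuclear envelope and has to let go when the envelope breaks down at mitosis. The kinase is most abundant in dividing cells, and its gene is switched on with other genes of proliferation.

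The deposited values were log2 intensities of 1 probe each, with an array median of 5.93 in each of the 4. Across genes, the replicate arrays correlated with r = 0.993 for siVRK1 and r = 0.991 for control. The standard deviation (SD) of the difference between replicates was 0.239 log2 in siVRK1 and 0.269 log2 in control. In HT1080 it was smaller, 0.181 log2 in siVRK1 and 0.175 log2 in control. The fit used 1 spread per gene for both lines, so its standard errors are not those of MDA-MB-231 alone. The markers of the line were in place: 7 of 8 mesenchymal markers lay above the filter level of 6.08 log2 on every MDA-MB-231 array, VIM between 11.65 and 12.13 and CD44 between 11.92 and 12.22, while SPARC, at 5.64 to 5.73, did not. Of 10 luminal markers 4 were above that level on each siVRK1 array, against 4 and 3 on the control arrays. They included KRT19 between 10.74 and 11.18, KRT8 between 8.95 and 9.52 and KRT18 between 7.29 and 7.65 log2, while the receptors ESR1 and PGR and the epithelial marker EPCAM stayed between 5.64 and 5.91 log2, the level of dim probes. Of the 3 basal markers on the array EGFR read 8.45 to 8.90, and the keratins KRT5 and KRT14 read 5.57 to 5.77 log2. Among the leukocyte markers PTPRC, CD3E and CD53 also stayed at that level, whereas CD14, CD68 and LAPTM5 were above it and read -0.27, -0.31 and -0.61 log2 in siVRK1 against control, none of them called. Of 5 liver markers SERPINA1 alone was above the filter level, at 8.09 and 7.41 log2 on the siVRK1 arrays, against 8.01 and 7.34 on the control arrays. Of 5 endothelial markers PECAM1 alone was above it, at 6.56 and 6.66 log2 on the siVRK1 arrays, against 6.34 and 6.63 on the control arrays. Neither was called. Of 5 neural markers SNAP25 read 6.28 to 6.32 log2 on every array and SYT1 passed the level only on control array 2.

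VRK1 itself was lower on both siVRK1 arrays. Its probe read 6.23 and 6.74 log2 on the siVRK1 arrays, against 7.93 and 7.61 on the control arrays. The change was -1.28 log2 (SE 0.17, adjusted p = 0.0117, limma), leaving 41.1% of the control signal with background included. Its mRNA was thus reduced and still above the filter level, and array 1 of siVRK1 was the lower one. VRK3, a relative without kinase activity, read -0.20 and VRK2, a kinase of the endoplasmic reticulum and nuclear envelope, 0.04 log2, and neither was called. The call of VRK1 was lost when MDA-MB-231 was fitted without the HT1080 arrays (adjusted p = 0.292) and without either HT1080 control array (adjusted p = 0.0518). It was also lost with background subtracted, where the change was -2.04 log2 (adjusted p = 0.0740).

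Over all 9451 genes tested, siVRK1 changed 94 (limma, adjusted p under 0.05), which is 0.995% of them: 45 were higher (0.476%) and 49 lower (0.518%). These genes are termed called. Their shares apply beside every count of called genes in a list below, and at these shares a short list may hold none. The lists were chosen with earlier results of these data known, so no such count is a test of its list. The median of all changes was 0.0029 log2, and 49.3% of all genes had a negative value. The arrays had nearly the same distribution as deposited, so this balance cannot show whether expression shifted as a whole. The called rises ranged from 0.53 to 1.42 log2 with a median of 0.75, and the called falls from -0.56 to -1.76 with a median of -0.79. A change of 2-fold or more was reached by 18 called genes, 6 higher and 12 lower. In all 94 the siVRK1 arrays lay wholly above or below the control arrays, but 39.3% of all genes tested did so, 20.4% above and 18.8% below, so separation of the arrays alone was not read as a result. Before adjustment 13.2% of genes had a p under 0.05, 6.84% higher and 6.33% lower in siVRK1. Among the genes whose change is given here, leaving out 1 array in turn moved 0 of the 76 called ones by over 1.5 times. It moved or turned 106 of the 144 that were not called. A call requires a change large beside its spread, so this contrast follows in part from the selection and is no test of the calls.

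**Figure D1:**
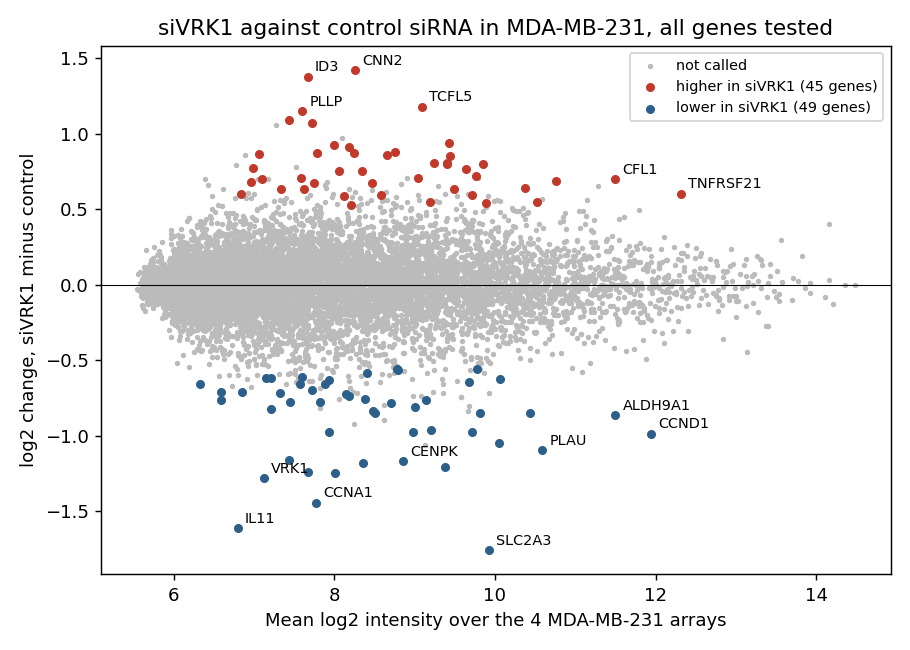
Change in siVRK1 against control (vertical axis, log2) plotted against the mean log2 intensity over the 4 MDA-MB-231 arrays (horizontal axis) for every gene tested. Red points are the 45 genes called higher in siVRK1 and blue points the 49 called lower, and SLC2A3 at -1.76 and CNN2 at 1.42 mark the extremes.

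The leading rises included regulators of transcription that hold back other factors. ID3, which binds helix-loop-helix factors and keeps them off DNA, read 8.52 and 8.21 log2 on the siVRK1 arrays, against 7.36 and 6.61 on the control arrays, a rise of 1.38 log2 (SE 0.21, adjusted p = 0.0234). TCFL5, a helix-loop-helix factor best known from the testis, read 9.80 and 9.57 log2 on the siVRK1 arrays, against 8.44 and 8.57 on the control arrays (1.18, SE 0.11, adjusted p = 0.00289; here and below the number in parentheses before SE is the log2 change, siVRK1 minus control). Both groups of arrays stood apart for each gene, with ID3 the more scattered on the control arrays. FOXN3, a forkhead repressor linked to the DNA damage checkpoint, read 8.35 and 8.15 log2 on the siVRK1 arrays, against 7.19 and 7.17 on the control arrays (1.07, SE 0.13, adjusted p = 0.00969). MXD4, a MAX partner that opposes MYC, read 9.62 and 9.68 log2 on the siVRK1 arrays, against 8.68 and 9.01 on the control arrays (0.81, SE 0.13, adjusted p = 0.0236). In both genes every siVRK1 array was above every control array by more than the gap between replicates.

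Among the called rises were 2 of the 30 actin-binding genes, CNN2 and CFL1, and 1 of the 17 keratins and junction genes, KRT7. Of all genes tested 0.476% were called higher. CNN2, a calponin that binds actin, had the largest rise: it read 8.93 and 9.001 log2 on the siVRK1 arrays, against 7.50 and 7.58 on the control arrays, a change of 1.42 (SE 0.12, adjusted p = 0.00165). SHROOM3, which recruits myosin activity to the apical side of epithelial cells, read 9.82 and 9.79 log2 on the siVRK1 arrays, against 8.97 and 9.02 on the control arrays (0.80, SE 0.11, adjusted p = 0.0148). KRT7, a keratin of simple epithelia, read 10.14 and 9.90 log2 on the siVRK1 arrays, against 9.23 and 9.27 on the control arrays (0.77, SE 0.11, adjusted p = 0.0172). Replicates of CNN2 and SHROOM3 nearly coincided in each group. CFL1, the actin-severing protein cofilin, was abundant and read 11.74 and 11.95 log2 on the siVRK1 arrays, against 11.12 and 11.18 on the control arrays (0.70, SE 0.13, adjusted p = 0.0395).

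Some of the called rises encode ligands and receptors. TGFA, a ligand of the EGF receptor, read 8.73 and 8.65 log2 on the siVRK1 arrays, against 7.88 and 7.74 on the control arrays (0.88, SE 0.11, adjusted p = 0.0117). JAG1, a Notch ligand, read 9.06 and 9.32 log2 on the siVRK1 arrays, against 8.13 and 8.50 on the control arrays (0.88, SE 0.14, adjusted p = 0.0242). TNFSF10, the death ligand TRAIL, read 9.96 and 9.78 log2 on the siVRK1 arrays, against 8.99 and 9.04 on the control arrays (0.85, SE 0.11, adjusted p = 0.0117). In these 3 ligands the siVRK1 arrays were the higher ones without overlap. The lipoprotein receptor LRP8 changed by 0.93, the proteolipid PLLP by 1.15 and the retinoic acid-induced receptor GPRC5A by 0.77 log2. LRIG1, which promotes degradation of the EGF receptor, changed by 0.71, IGF2R, the mannose 6-phosphate receptor, by 0.72 and DDR1, a collagen-binding kinase, by 0.75 log2, with adjusted p of 0.0323, 0.0236 and 0.0434.

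The called rises included 1 of 29 matrix proteins, 1 of 16 collagen-modifying enzymes and 1 of 9 hyaluronan genes, against 0.476% of all genes. COL4A1, a chain of basement membrane collagen, read 8.25 and 8.18 log2 on the siVRK1 arrays, against 7.45 and 7.23 on the control arrays (0.88, SE 0.12, adjusted p = 0.0117). P4HA1, which hydroxylates prolines in collagen, read 8.37 and 8.92 log2 on the siVRK1 arrays, against 7.65 and 7.80 on the control arrays (0.91, SE 0.17, adjusted p = 0.0423). CEMIP, which takes part in the breakdown of hyaluronan, read 10.37 and 10.14 log2 on the siVRK1 arrays, against 9.56 and 9.36 on the control arrays (0.80, SE 0.13, adjusted p = 0.0276). For P4HA1 the siVRK1 arrays differed from each other by more than the control arrays did. CST1, a cysteine protease inhibitor, changed by 0.94, TCN1, a vitamin B12 binder, by 1.09 and the amylase AMY1A by 0.86 log2. CST1 and AMY1A belong to families of near-identical genes that a probe may not separate. The steroid dehydrogenase HSD3B1 and the endosomal protein WDFY1 completed the 20 largest rises at 0.87 and 0.80 log2.

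**Figure D2:**
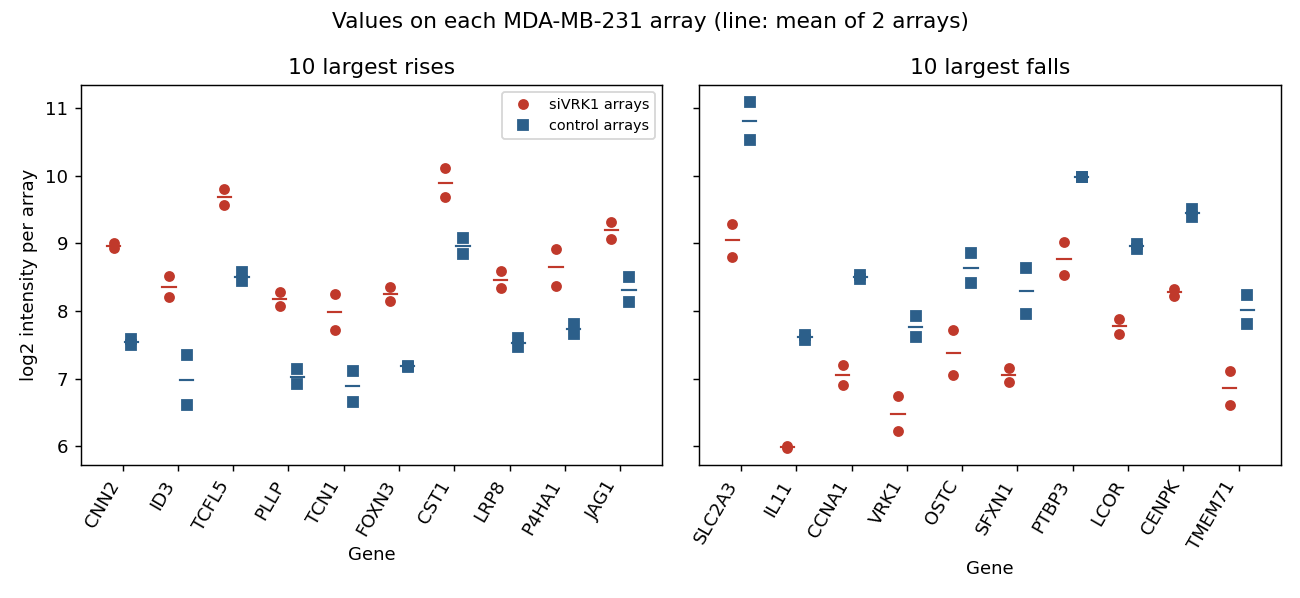
log2 intensity (vertical axis) of the 10 genes with the largest rise and the 10 with the largest fall (horizontal axis). Red circles are the 2 siVRK1 arrays and blue squares the 2 control arrays of MDA-MB-231, with a line at each mean. In every gene shown the red and blue symbols do not overlap, which was a condition for choosing the genes.

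The largest fall was in SLC2A3, which encodes the glucose transporter GLUT3 and read 8.80 and 9.29 log2 on the siVRK1 arrays, against 10.52 and 11.08 on the control arrays (-1.76, SE 0.20, adjusted p = 0.00799). IL11, a cytokine that signals through the gp130 receptor, read 6.004 and 5.98 log2 on the siVRK1 arrays, against 7.58 and 7.64 on the control arrays (-1.61, SE 0.12, adjusted p = 0.00122). The siVRK1 arrays of IL11 lay below the filter level, so its measured fall is limited by the background. CCNA1, a cyclin of germ cells that some tumours express, read 6.91 and 7.20 log2 on the siVRK1 arrays, against 8.53 and 8.47 on the control arrays (-1.44, SE 0.12, adjusted p = 0.00122). All 3 genes had replicates far closer to each other than to the other group. The near-identical SLC2A14, which shares sequence with SLC2A3, changed by -0.01 log2. Its probe was dim, at 6.36 and 6.41 log2 on the siVRK1 arrays, against 6.17 and 6.62 on the control arrays. At that level background limits any measured change.

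Some of the called falls encode proteins of proliferation. CCND1, the D-type cyclin that opens G1 phase, was abundant and read 11.14 and 11.76 log2 on the siVRK1 arrays, against 12.50 and 12.38 on the control arrays (-0.99, SE 0.18, adjusted p = 0.0363). PCNA, the sliding clamp of DNA polymerases, read 9.08 and 9.37 log2 on the siVRK1 arrays, against 10.34 and 10.06 on the control arrays (-0.98, SE 0.16, adjusted p = 0.0276). CENPK, a protein of the inner kinetochore, read 8.32 and 8.22 log2 on the siVRK1 arrays, against 9.51 and 9.38 on the control arrays (-1.17, SE 0.12, adjusted p = 0.00376). CCND1 and PCNA were lower on siVRK1 array 1 than on array 2, and CENPK was even on both. PARP1, which builds poly(ADP-ribose) at DNA breaks, read 9.15 and 9.63 log2 on the siVRK1 arrays, against 10.37 and 10.11 on the control arrays (-0.85, SE 0.17, adjusted p = 0.0475).

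Of the next falls SFXN1, SMS, OSTC and YIPF6 were each the 1 call of a list. SFXN1, a mitochondrial carrier of serine, read 6.95 and 7.15 log2 on the siVRK1 arrays, against 8.63 and 7.95 on the control arrays (-1.24, SE 0.19, adjusted p = 0.0208). SMS, which makes spermine, read 9.24 and 9.81 log2 on the siVRK1 arrays, against 10.75 and 10.41 on the control arrays (-1.05, SE 0.18, adjusted p = 0.0344). OSTC, a subunit of the complex that adds N-glycans, read 7.06 and 7.71 log2 on the siVRK1 arrays, against 8.41 and 8.85 on the control arrays (-1.25, SE 0.24, adjusted p = 0.0475). In these 3 genes the replicates lay farther apart than in IL11 or CENPK, without overlap between the groups. The aldehyde dehydrogenase ALDH9A1 changed by -0.86, the Golgi protein YIPF6 by -0.97 and GCNT2, a glycosyltransferase of the I blood group, by -0.98 log2.

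The protease PLAU, urokinase, read 10.03 and 10.05 log2 on the siVRK1 arrays, against 11.25 and 11.02 on the control arrays (-1.10, SE 0.15, adjusted p = 0.0144). Its siVRK1 arrays agreed closely and its control arrays less so. The splicing regulator PTBP3 read 8.53 and 9.02 log2 on the siVRK1 arrays, against 9.97 and 9.98 on the control arrays (-1.21, SE 0.15, adjusted p = 0.0117), and the nuclear receptor corepressor LCOR changed by -1.18 (SE 0.16, adjusted p = 0.0117). The mRNA decapping enzyme DCP2 changed by -0.85, and TMEM71 and KIAA1191, for which no role is given here, by -1.16 and -0.96 log2.

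The other 25 called rises spanned 0.53 to 0.77 log2 and included INTS9, a subunit of the Integrator complex (0.70), F3, tissue factor (0.69), RAB7A, a late endosome GTPase (0.64), GATAD2A, a subunit of the NuRD complex (0.64), TNFRSF21, a death receptor (0.60), STK3, a Hippo pathway kinase (0.59), IFI27, an interferon-stimulated gene (0.55) and CDH11, a mesenchymal cadherin (0.54). The other 29 called falls spanned -0.56 to -0.85 log2. Among them were ZMPSTE24, the protease that matures lamin A (-0.85), RBBP7, a histone-binding chaperone (-0.74), PHF19, a Polycomb partner (-0.61), ITGB3BP, also known as the kinetochore protein CENPR (-0.72), GTF2E1, a general transcription factor (-0.69), LSM8, a core protein of U6 RNA (-0.66), DPH5, which modifies elongation factor 2 (-0.63), and EIF2AK1, a kinase that slows translation when haem is short (-0.63). SRGN, the proteoglycan core of secretory granules, changed by -0.66 and NMI, a MYC and STAT interactor, by -0.59 log2. UHMK1 fell by 0.66 log2 and was the only called fall besides IL11 whose siVRK1 mean lay under the filter level; with background subtracted UHMK1 read -1.64 and IL11 -3.12 log2.

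Where a called gene had another probe above the filter, the probes did not always move alike. Both fell for KIAA1191, at -0.96 and -0.91 log2, for DPH5, at -0.63 and -0.77, and for LRRC20, at -0.76 and -0.68. The other probe of CNN2 read 0.71 against 1.42 log2, and that of PCNA -0.42 against -0.98 log2, smaller in the same direction. For LRP8 the other probe read 0.11 against 0.93, for AMMECR1 0.08 against 0.68 and for GCNT2 -0.17 against -0.98 log2. The other probes of GNA12 and SRI read -0.08 and -0.05 log2, against called rises of 0.67 and 0.53. The calls of these last 5 genes thus rest on 1 of their 2 probes.

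Genes of mitosis were measured in 3 lists: kinases, cyclins B and regulators of the anaphase-promoting complex, which time entry and exit; kinesins, spindle and cytokinesis proteins, which move and part the chromosomes; and centromere and kinetochore proteins, which attach them. Of the kinases and their partners 2 of 39 fell (5.13%, against 0.518% of all genes), 31 had a negative value (79.5%, against 49.3%), and the median was -0.21 log2. Of the spindle genes 1 of 32 fell, 30 were negative and the median was -0.32 log2. Of the centromere genes 1 of 32 fell, 29 were negative and the median was -0.19 log2. No member of these 3 lists was called higher. Without each MDA-MB-231 array in turn the medians ran from -0.31 to -0.15, from -0.48 to -0.21 and from -0.25 to -0.14 log2. In whole-cell RNA, fewer cells in mitosis and less of each RNA per mitotic cell cannot be told apart.

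NEK2, a kinase that splits the centrosomes, read 8.67 and 8.85 log2 on the siVRK1 arrays, against 9.64 and 9.40 on the control arrays (-0.76, SE 0.12, adjusted p = 0.0233). CDC20, the activator of the anaphase-promoting complex, read 9.22 and 9.49 log2 on the siVRK1 arrays, against 10.05 and 9.95 on the control arrays (-0.64, SE 0.12, adjusted p = 0.0405). KIF14, a kinesin of the midbody, read 8.04 and 8.08 log2 on the siVRK1 arrays, against 9.08 and 8.71 on the control arrays (-0.84, SE 0.14, adjusted p = 0.0320). All 3 were lower on both siVRK1 arrays, and control array 1 was the highest array in each. Other low members that were not called were STMN1, which destabilizes microtubules (-0.85, adjusted p = 0.0553), and HJURP, which loads the centromeric histone (-0.46). At the other end stood CDC16, a subunit of the anaphase-promoting complex (0.30), NEK6, a kinase of spindle assembly (0.22), NUMA1, which focuses spindle poles (0.27), KIF2A, a microtubule depolymerase (0.01), and the kinetochore proteins ZWINT (0.14) and SKA3 (0.09). PIMREG, a mitotic regulator outside the lists, fell by 0.81 log2 (SE 0.12, adjusted p = 0.0152). The called kinetochore gene ITGB3BP, given above (-0.72), was also outside the lists.

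The stretch upstream of the start site is printed for the 4 called members of the mitotic lists. Cell cycle promoters are known to carry CCAAT boxes, bound by NF-Y, and the CHR element TTTGAA, bound by the DREAM and MYB-MuvB complexes. Capitals mark CCAAT and TTTGAA on either strand (ATTGG and TTCAAA on the reverse strand). The sequences are RefSeq's for GRCh38.p14, each the 250 bases before the start site, 5′ to 3′ along the gene. NEK2 lies on the minus strand at chr1:211675622-211675871, CDC20 on the plus strand at chr1:43358731-43358980, KIF14 on the minus strand at chr1:200620752-200621001 and CENPK on the minus strand at chr5:65563169-65563418.
NEK2: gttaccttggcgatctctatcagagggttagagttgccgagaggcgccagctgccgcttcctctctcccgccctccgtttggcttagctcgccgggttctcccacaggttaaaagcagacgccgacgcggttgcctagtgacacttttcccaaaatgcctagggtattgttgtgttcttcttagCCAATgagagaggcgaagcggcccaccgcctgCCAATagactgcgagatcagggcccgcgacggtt
CDC20: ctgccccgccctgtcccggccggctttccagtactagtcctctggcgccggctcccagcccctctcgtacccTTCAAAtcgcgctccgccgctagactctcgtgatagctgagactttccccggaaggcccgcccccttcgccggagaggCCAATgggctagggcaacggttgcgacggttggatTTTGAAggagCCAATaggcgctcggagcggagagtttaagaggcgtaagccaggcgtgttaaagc
KIF14: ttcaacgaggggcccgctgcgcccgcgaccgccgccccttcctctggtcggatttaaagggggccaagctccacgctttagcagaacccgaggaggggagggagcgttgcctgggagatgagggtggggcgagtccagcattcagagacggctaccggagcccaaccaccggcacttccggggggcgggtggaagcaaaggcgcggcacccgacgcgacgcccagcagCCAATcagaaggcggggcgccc
CENPK: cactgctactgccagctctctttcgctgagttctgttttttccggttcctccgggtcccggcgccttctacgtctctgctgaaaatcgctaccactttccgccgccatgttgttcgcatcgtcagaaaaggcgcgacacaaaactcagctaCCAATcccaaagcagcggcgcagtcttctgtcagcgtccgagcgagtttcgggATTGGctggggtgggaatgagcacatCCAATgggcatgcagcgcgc
CCAAT was found at 2 places in NEK2, 2 in CDC20, 1 in KIF14 and 3 in CENPK, and TTTGAA at 2 in CDC20. Of the 27305 upstream stretches of this length in the table, 33.0% held CCAAT and 13.6% held TTTGAA. Among the 7870 tested genes with a sequence the shares were 36.1% and 8.48%. Among the tested members of the 3 mitotic lists, 89 of 103 had a sequence, of which 55 held CCAAT and 28 held TTTGAA. Among the 49 called falls, 40 had a sequence, and 19 of these held CCAAT and 2 TTTGAA, while of the 37 called rises with a sequence 14 held CCAAT and 3 TTTGAA. The E-box CACGTG was found in 0 of the 40 falls, 5 of the 37 rises (13.5%), 9.40% of the tested genes and 6.49% of all stretches. A match in letters shows no binding.

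For the leading genes outside the cell cycle, IL11 and CNN2 are printed in the same way, IL11 from the minus strand at chr19:55370464-55370713 with the AP-1 motif TGANTCA in capitals, as JUN is a VRK1 substrate, and CNN2 from the plus strand at chr19:1026358-1026607 with CCAAT in capitals.
IL11: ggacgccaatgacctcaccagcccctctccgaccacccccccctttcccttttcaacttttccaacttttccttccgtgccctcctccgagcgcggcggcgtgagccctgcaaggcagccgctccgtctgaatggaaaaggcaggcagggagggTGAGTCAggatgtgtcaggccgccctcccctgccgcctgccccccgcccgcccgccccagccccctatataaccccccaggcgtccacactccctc
CNN2: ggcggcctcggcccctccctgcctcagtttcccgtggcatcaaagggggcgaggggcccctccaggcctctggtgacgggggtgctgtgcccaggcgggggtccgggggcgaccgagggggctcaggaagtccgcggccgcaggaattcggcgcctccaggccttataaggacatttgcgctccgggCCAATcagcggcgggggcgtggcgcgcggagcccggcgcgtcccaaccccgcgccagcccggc
The AP-1 motif was present in 1 place in IL11, 96 to 90 bases before the start, in 3.88% of the tested genes and in 6.60% of all stretches, read on both strands. Of the called genes with a sequence, 2 of the 40 falls and 2 of the 37 rises held the AP-1 motif. CNN2 held CCAAT in 1 place, and so did IL11, where it is not in capitals.

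Lists of S phase and of chromosome structure had 0 or 1 call each in siVRK1. In the list of DNA replication, whose members unwind and copy the genome, PCNA was the only one of 45 called, 32 were negative and the median was -0.14 log2, but it ran from -0.26 to -0.01 when each array was left out. GINS2, a subunit of the replicative helicase, read -0.72, and GINS3 and MCM2, of the same helicase, 0.17 and 0.13 log2. STAG2, a cohesin subunit, read 8.44 and 8.59 log2 on the siVRK1 arrays, against 9.09 and 9.07 on the control arrays and was the only called member of 20 condensin and cohesin genes (-0.56, SE 0.11, adjusted p = 0.0423). In that list NCAPD2, of condensin, read -0.43 and PDS5B and ESCO1, of cohesin, 0.27 and 0.19 log2. Nucleotide supply had 0 calls of 21 and a median of -0.07, with PAICS at -0.23 and TK1, thymidine kinase, at -0.19 against DUT, which removes dUTP, at 0.20 and GART at 0.30 log2.

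The G1/S list held the most called members, 4 of 30, all lower: CCNA1 and CCND1, given above, CDKN2D, an inhibitor of CDK4 and CDK6 (7.64 and 7.93 log2 on the siVRK1 arrays, against 8.48 and 8.54 on the control arrays; -0.73, SE 0.12, adjusted p = 0.0282), and E2F5, a repressor of the E2F family (8.52 and 8.47 log2 on the siVRK1 arrays, against 9.06 and 9.05 on the control arrays; -0.56, SE 0.10, adjusted p = 0.0391). Activators and inhibitors of the cycle thus stood side by side among the falls. The 4 falls were 13.3% of the list, against 0.518% of all genes, while 17 of its 30 members had a negative value. The median of the list was -0.07 log2, and its highest members were CCNE1, cyclin E1 (0.25), and CDK7 (0.25). Of 20 p53 target genes 0 were called, against 0.995% of all genes, a share at which a list this short need not hold any. Their median was -0.02 log2, with PMAIP1 and ZMAT3 lowest (-0.50 and -0.45) and GDF15 and TP53I3 highest (0.55 and 0.31). Of 38 genes of DNA damage signalling and repair PARP1 was the 1 call, RNASEH2A read -0.42, and XRCC5 and MSH6 read 0.34 and 0.25 log2. None of 18 histone genes was called, with H3-3B and H1-10 at -0.68 and -0.54 and H2BC5 and H1-2 at 0.51 and 0.47 log2, and clustered histone genes resemble each other closely enough to share a probe's signal.

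VRK1 partners and the nuclear envelope were measured next. None of 14 substrates and partners of VRK1 was called, and the median was -0.08 log2. CREB1 and COIL, the Cajal body protein, were lowest at -0.35 and -0.20, and NBN and ATF2 highest at 0.05 and 0.02 log2. In the list of lamina and LEM proteins, which line the inner nuclear membrane, ZMPSTE24 was the 1 called member of 19. It read 9.94 and 10.09 log2 on the siVRK1 arrays, against 10.76 and 10.97 on the control arrays (-0.85, SE 0.12, adjusted p = 0.0148). The groups stood apart by more than the gap within each. LMNB1, lamin B1, read -0.49 and was not called (adjusted p = 0.244), and TOR1AIP1 and SYNE2 were highest at 0.33 and 0.25 log2.

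**Figure D3:**
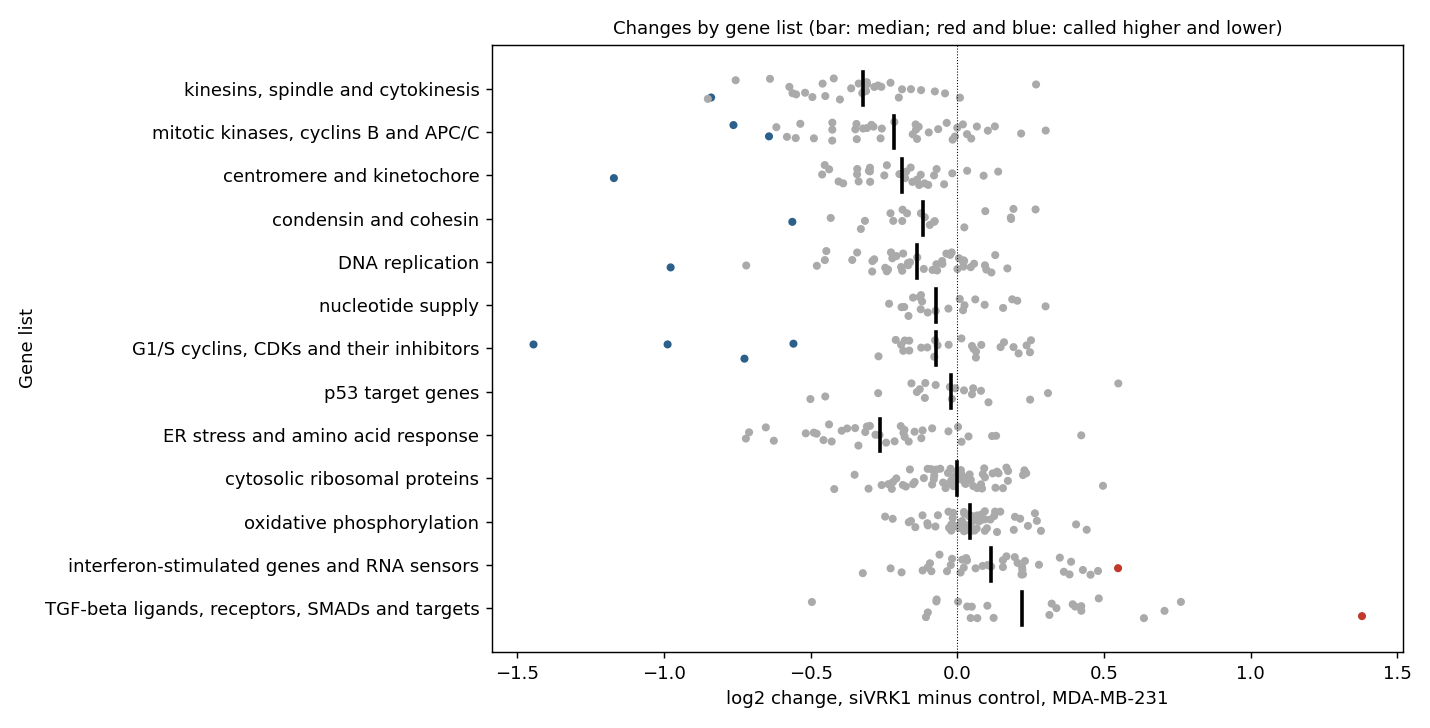
log2 change in siVRK1 against control (horizontal axis) of the tested members of 13 gene lists (vertical axis). Each point is a gene, red where called higher and blue where called lower, and the black bar is the median, which lies at -0.32 for the spindle list and at 0.22 for the TGF-beta list.

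Transcription factor families showed isolated calls. Of 17 ID and helix-loop-helix factors ID3 and TCFL5 rose, ID1 read 0.76 log2, from 0.29 to 1.23 without each array (adjusted p = 0.206), and HEY1 and NEUROG2 were lowest at -0.16 and -0.12 log2. FOXN3 was the 1 call of 17 forkhead genes, followed by FOXK1 at 0.44, with FOXM1, the mitotic activator, at -0.21 and FOXK2 at -0.11 log2. MXD4 was the 1 call of 9 in the MYC network, in which MNT read 0.21, MLX -0.21 and MXD3 -0.18 log2. Of 33 genes of AP-1, CREB and ERK output only CCND1 was called. FOSL1, an AP-1 subunit, read -0.62 (adjusted p = 0.109), DUSP1, a phosphatase of MAP kinases, 0.23, and CREB5 0.21 log2.

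Cytokine and immune genes were mostly uncalled. IL11 was the 1 call of 16 in the IL-6 family, where LIFR read -0.27, IL6 itself 0.58 and PTPN11, a phosphatase in the pathway, 0.39 log2. The 23 NF-kB and inflammatory genes had 0 calls, a median of -0.02, IL1A at -0.55 (-1.09 to -0.0026 without each array), CXCL8 at -0.37 (-1.25 to 0.51) and IRAK2 at 0.39 log2. Of 39 interferon-stimulated genes and RNA sensors IFI27 was the 1 call (10.81 and 10.78 log2 on the siVRK1 arrays, against 10.26 and 10.23 on the control arrays; 0.55, SE 0.10, adjusted p = 0.0382), 28 were positive and the median was 0.12, between 0.05 and 0.15 without each array. ISG15 was next at 0.48, and IFITM1 and HERC5 were lowest at -0.32 and -0.23 log2. The 16 genes of MHC class I presentation had 0 calls and a median of 0.06, with B2M at 0.38, TAPBP at 0.38, CANX at -0.22 and ERAP2 at -0.17 log2.

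Signalling lists that govern growth and cell identity had positive medians. Of 24 TGF-beta genes 19 were positive, the median was 0.22 log2, against 0.0029 over all genes, and it stayed between 0.14 and 0.27 without each array, while only ID3 was called. ID1 and FST, follistatin, came next (0.76 and 0.71), and TGIF1, a corepressor, and SMAD5 were lowest at -0.50 and -0.11 log2. Among 20 YAP and TEAD genes F3 (11.13 and 11.09 log2 on the siVRK1 arrays, against 10.59 and 10.25 on the control arrays; 0.69, SE 0.13, adjusted p = 0.0482) and STK3 (8.91 and 8.85 log2 on the siVRK1 arrays, against 8.25 and 8.33 on the control arrays; 0.59, SE 0.11, adjusted p = 0.0423) rose, while YAP1 and its target CCN2 were lowest at -0.50 and -0.45 and were not called. JAG1 was the 1 call of 19 Notch genes, with HES4 at 0.51 (0.11 to 0.92 without each array), PSENEN, of gamma-secretase, at -0.34 and RBPJ at -0.19 log2. TGFA and LRIG1, a ligand and an inhibitor, were the 2 calls of 12 EGF receptor genes, in which CBL and SHC1 were lowest at -0.49 and -0.20 log2. IGF2R was the 1 call of 11 insulin-like growth factor genes, with IGFBP6 at 0.32, PAPPA at -0.18 and IGF1R at -0.09 log2.

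Genes of adhesion and cell type had calls in 1 direction. CDH11 was the 1 call of 15 EMT regulators and cadherins (10.09 and 10.24 log2 on the siVRK1 arrays, against 9.63 and 9.61 on the control arrays; 0.54, SE 0.11, adjusted p = 0.0475), next to SNAI2, a repressor of epithelial genes, at 0.67, with VIM and CTNNB1 lowest at -0.24 and -0.18 log2. KRT7 was the 1 call of 17 keratins and junction genes, with the junction protein JUP at 0.71 (adjusted p = 0.0541) and KRT18 and KRT10 at -0.30 and -0.28 log2. A mesenchymal cadherin and an epithelial keratin were therefore both among the rises. CNN2 and CFL1 were the 2 calls of 30 actin-binding genes, whose median was 0.02 log2 and whose lowest members were MYL9 and TAGLN3 at -0.17 and -0.15. Of 30 integrin and focal adhesion genes 0 were called, with ITGB5 and ITGB4 at 0.49 and 0.45, CD9 at -0.28 and ITGAV at -0.15 log2.

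In the matrix lists COL4A1 was the 1 call of 29 matrix proteins, COL6A3 read 0.60, and COL8A1 and COL1A1 read -0.62 and -0.13 log2. P4HA1 was the 1 call of 16 collagen-modifying enzymes, PLOD3, a lysyl hydroxylase, read 0.59, and PCOLCE and LOX read -0.22 and -0.20 log2. Proteases and their inhibitors had calls both ways, PLAU lower and CST1 higher, of 30. The urokinase receptor PLAUR read -0.43 and cathepsin H, CTSH, 0.64 log2. CEMIP was the 1 call of 9 hyaluronan genes, with the synthase HAS2 at 0.47, the receptor HMMR, which also serves the spindle, at -0.34 and ITIH5 at -0.24 log2. None of 10 S100 genes was called, although S100P had a value of 1.06 log2, from 0.27 to 1.85 without each array: it read 7.08 and 8.53 log2 on the siVRK1 arrays, against 5.96 and 7.54 on the control arrays, and array 1 of siVRK1 was lower than array 2 of control.

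The metabolic lists were chosen with earlier results of these data known, so their counts show no pattern of metabolism. Each list had 1 call or none, and each call was a fall. They were SLC2A3 of 9 glucose transporters, PGM2L1, which makes glucose 1,6-bisphosphate, of 39 hypoxia and glycolysis genes (6.76 and 6.93 log2 on the siVRK1 arrays, against 7.46 and 7.45 on the control arrays; -0.61, SE 0.11, adjusted p = 0.0323), OSTC of 32 N-glycosylation genes, YIPF6 of 30 Golgi genes, SFXN1 of 19 serine and one-carbon genes, SMS of 15 polyamine genes and SLC44A1, a choline transporter, of 13 choline genes (9.51 and 9.50 log2 on the siVRK1 arrays, against 10.09 and 10.03 on the control arrays; -0.56, SE 0.10, adjusted p = 0.0347). The medians of these 7 lists lay between -0.08 and 0.09 log2. Members below an unadjusted p of 0.05 in the direction of the call, the called gene included, numbered 5 of 15 in the polyamine list, 4 of 39 in hypoxia and glycolysis, 4 of 32 in N-glycosylation, 2 each in the Golgi and serine lists and 1 each in the other two. SLC2A1, the common transporter GLUT1, read 0.16 and SLC2A6 0.39, HIF1A 0.60 and CA12 0.58, MGAT2 -0.52 and RPN2 0.18, and ARF4 and ARF1 -0.52 and 0.57 log2. PSAT1 and PHGDH, of serine synthesis, read -0.63 and -0.46 and MTHFD2 0.42, ODC1, which makes putrescine, -0.46 and AMD1 0.39 (0.065 to 0.72 without each array), and LPCAT3 0.33 log2. Cholesterol and fatty acid synthesis had 0 calls of 28, with HMGCS1 at -1.06 (adjusted p = 0.165) and INSIG2 at -0.80 against ACSL1 at 0.78 and ACACA at 0.46 log2.

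Several general lists had no call in siVRK1. They were heat shock chaperones (median -0.08 log2 over 33 genes, from HSPA13 at -0.57 to HSPD1 at 0.32), the BCL2 family (-0.05, 17, from PMAIP1 to BOK at 0.29), the machinery of RNA interference (0.13, 11, from TARBP2 at -0.13 to GEMIN4 at 0.31), cytosolic ribosomal proteins (0.00, 65, from RPS6 at -0.42 to RPS13 at 0.50) and oxidative phosphorylation (0.04, 62, from NDUFA10 at -0.25 to SDHD at 0.44). The RNA interference list had the highest of these medians, with 9 of 11 members positive and 54.5% wholly higher on the siVRK1 arrays, against 20.4% of all genes.

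The list of ER stress and amino acid response, genes switched on when unfolded proteins gather in the endoplasmic reticulum or amino acids run short, showed gaps between replicates beside those between the groups. Of 37 genes 31 were negative and the median was -0.27 log2, yet 0 were called, and it ran from -0.63 without control array 1 to 0.14 without control array 2. Replicate array 2 read higher than replicate array 1 in 37 of 37 genes in siVRK1 and in 36 in control, by a median of 0.52 and 0.83 log2. Over all genes tested array 2 was the higher in 4786 in siVRK1 and 4537 in control, with medians of 0.00 and -0.01 log2. HSPA5, the chaperone BiP, read 8.26 and 9.48 log2 on the siVRK1 arrays, against 8.67 and 10.49 on the control arrays, and ASNS, asparagine synthetase, 8.54 and 9.46 log2 on the siVRK1 arrays, against 8.86 and 10.58 on the control arrays. The growth factor GDF15 read 8.22 and 10.14 log2 on the siVRK1 arrays, against 7.31 and 9.96 on the control arrays, and PTGS2, the prostaglandin synthase COX-2, 7.06 and 8.79 log2 on the siVRK1 arrays, against 7.05 and 9.44 on the control arrays. HSPA5 and ASNS were lower on each siVRK1 array than on the control array of the same number, although in all 4 genes the gap between replicates exceeded that between the group means (-0.71, -0.72, 0.55 and -0.32 log2).

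Cholesterol and fatty acid synthesis moved between replicates in the same way, with array 2 higher in 25 of 28 genes in siVRK1 and 28 in control. The MHC class II genes HLA-DMB (9.01 and 7.89 log2 on the siVRK1 arrays, against 8.61 and 7.89 on the control arrays) and HLA-DPA1 (8.26 and 7.40 log2 on the siVRK1 arrays, against 7.96 and 7.11 on the control arrays) went the other way, lower on array 2 of both groups. CXCL8 and HMGCS1, named above, were also higher on array 2 of each group. What set the 2 arrays of each group apart is not given by the labels, and the part of this pattern in the called genes was not tested. In the mitotic lists the median gap, array 2 minus array 1, was 0.10 log2 in siVRK1 and -0.20 in control for the kinases, 0.16 and -0.25 for the spindle genes and -0.03 and -0.14 for the centromere genes, so it was opposite in sign in the first 2 lists and negative in both groups in the third.

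**Figure D4:**
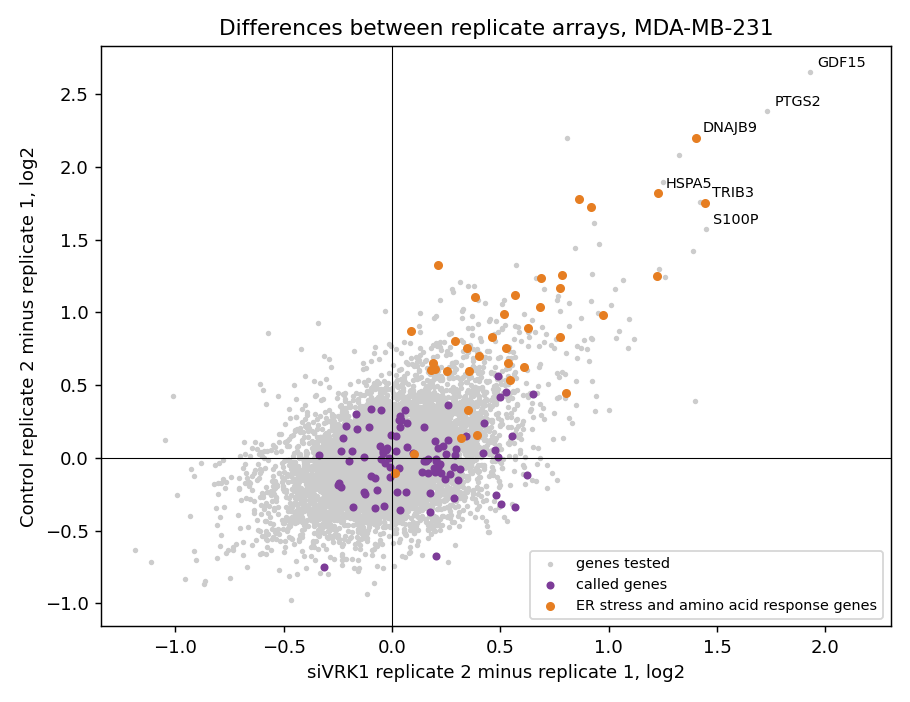
Difference between replicate 2 and replicate 1 in siVRK1 (horizontal axis, log2) and in control (vertical axis, log2) for every gene tested. Orange points are the 37 genes of ER stress and amino acid response, nearly all of which lie to the upper right, while purple points are the 94 called genes.

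The change in MDA-MB-231 was set against that in HT1080 gene by gene. No gene passed an adjusted p under 0.05 for the difference between the lines (limma, 0% of 9451), and 6.16% had an unadjusted p under 0.05. The nearest was CCNA1, whose change of -1.44 log2 in MDA-MB-231 stood against -0.04 in HT1080, a difference of -1.40 (adjusted p = 0.0751). On the 4 HT1080 arrays CCNA1 read between 5.77 and 5.85 log2, the level of dim probes, so a fall could not be measured there. P4HA1 stood at 0.91 against -0.53, COL4A1 at 0.88 against -0.05 and KRT7 at 0.77 against -0.13 log2, with KRT7 also at the level of dim probes in HT1080. On the other side were MARCHF3, a membrane ubiquitin ligase, at -0.38 against 0.53, and LRRC20 at -0.76 against 0.11 log2. These are the 3 genes with the smallest unadjusted p in each direction, with an adjusted p of 0.349 for all but CCNA1, and none is shown to differ.

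The number of called genes depended on the arrays in the fit. Without any HT1080 array it was 0, with 918 below 0.05 before adjustment. It was 16 without siVRK1 array 1, 68 without siVRK1 array 2, 59 without control array 1 and 108 without control array 2. Leaving out an HT1080 array, which alters only the spread, gave 24 for either siVRK1 array and 10 for either control array. The sign of all 94 called genes held in each of these fits. It could not have changed, as their siVRK1 arrays lay wholly beyond their control arrays. CCNA1, CENPK, CNN2, IL11, TCFL5 and SLC2A3 were called without each of the 8 arrays, 18 genes lost the call without 1 to 4 of them and 70 without 5 or more, at an adjusted p of at most 0.206. ID3, CST1, P4HA1, JAG1, OSTC and CCND1 were among the genes that lost it without 5 or more.

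**Figure D5:**
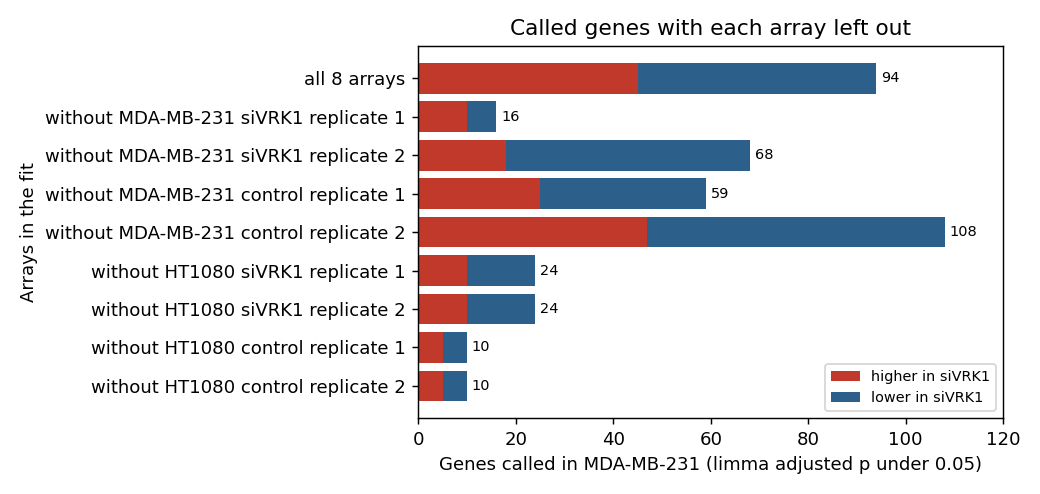
Number of genes called in MDA-MB-231 (horizontal axis) with all 8 arrays and with each array left out (vertical axis), red for genes higher in siVRK1 and blue for genes lower. The bars run from 10 genes without either HT1080 control array to 108 without MDA-MB-231 control array 2.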

How the data were processed

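RNA of 8 samples was labelled as biotinylated cRNA and read on Illumina bead arrays. The deposited table gives log2 intensities for 24526 probes, made with GenomeStudio per the submitters' processing notes, without a version or a normalization step being given in the sources used here. The 8 columns had nearly the same distribution (largest difference between arrays 0.00305 log2 over the percentiles compared) and were used as deposited, with background signal included, which makes changes of dim probes smaller. The number of arrays limits the precision.

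Symbols came from the platform annotation and were updated with RefSeq's gene table of GRCh38.p14 (21822 of 21834 named probes matched, 2692 had no symbol and 0 several). Probes whose highest group mean, over the 4 groups of both lines, reached 6.08 log2, its median over all probes, were kept. A gene was represented by whichever of its kept probes was brightest on average over all 8 arrays. A gene could thus be tested while dim in MDA-MB-231, as SPARC was. The model had a mean for each group over all 8 arrays and was run in limma 3.58.1 under R 4.3.3 (lmFit, eBayes, two-sided, Benjamini-Hochberg over 9451 genes), with 4 degrees of freedom left and 5.86 from the prior. Every adjusted p is limma's, and SE is that of the fit. The procedure was tested on simulated data. The simulation drew independent noise with the same spread in both lines, unlike these data. It therefore cannot show how many of the calls here are false.

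The genes named are VRK1, the 20 largest called rises and 20 largest called falls without overlap between arrays, and of each gene list the called members and mostly the 2 highest and 2 lowest members. For the difference between lines they are the 3 smallest p-values each way. Other called genes, large uncalled changes and the genes that differ between replicates were chosen after their values were seen. The 56 lists hold 1522 symbols, of which 123 had no named probe and 1149 were tested. The experiment, its lists and tests were chosen with earlier results of these data known. Alternatives covered the arrays in the fit, a replicate block, the filter, the probe rule, background, normalization, prior and weights.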

Additional observations from a re-analysis of the deposited data

Results flagged for a closer look

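Of the 1103 kept probes without a gene symbol, 11 passed an adjusted p under 0.05 in a limma fit over all 12263 kept probes, which called 106 in total. They are named here because the comparison by gene leaves such probes out. Of the 11, 7 were higher and 4 lower in siVRK1. The probe ILMN_1744381 read 8.05 and 7.93 log2 on the siVRK1 arrays, against 9.34 and 9.59 on the control arrays, a change of -1.47 (SE 0.12, adjusted p = 0.00113). ILMN_1654543 changed by -1.21, ILMN_1815878 by 0.82 and ILMN_1731783 by 0.76 log2. In all 4 the siVRK1 arrays lay wholly beyond the control arrays, as in 39.3% of the genes tested.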

How the results depend on the processing

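All 94 called genes kept their sign under every alternative, while their number moved. Where arrays were only left out the sign could not change, since siVRK1 and control arrays did not overlap in these genes. With no HT1080 array in the fit it was 0 (0 higher, 0 lower, with 918 below 0.05 before adjustment), with background subtracted 9 (4 higher, 5 lower) and with array weights per cell line 51 (21 higher, 30 lower). Without each of the 8 arrays in turn it ran from 10 to 108, with 5 to 47 higher and 5 to 61 lower. It was 90 to 109 with no filter, a filter on the MDA-MB-231 groups only, the mean of a gene's probes, quantile normalization, cyclic loess, an intensity trend or a robust prior. The VRK1 change lost its call with MDA-MB-231 fitted alone (-1.28 log2, adjusted p = 0.292), without HT1080 control array 1 or 2 (adjusted p = 0.0518) and with background subtracted (-2.04 log2, adjusted p = 0.0740), and ran from -1.54 to -1.03 log2 when an array was left out. Genes called for the difference between lines numbered 0 to 1 without each array, 1 with array weights and 3 with a replicate block.

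With a replicate block 297 genes were called (143 higher, 154 lower), all 94 among them. The correlation across genes of replicate differences between siVRK1 and control was 0.485 in MDA-MB-231 and -0.0485 in HT1080. With 2 pairs a line, the labels give such samples only a shared number, which is not shown to pair them. The main fit had no block, so differences shared by MDA-MB-231 arrays of the same number stayed in its spread.

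Uncalled genes whose value changed sign without 1 array ranged, in log2, as follows: ASNS from -1.58 to 0.14, ATF2 from -0.13 to 0.18, CANX from -0.54 to 0.089, CD9 from -0.81 to 0.24, CXCL8 from -1.25 to 0.51, DUSP1 from -0.28 to 0.73, ERAP2 from -0.56 to 0.22, FOXM1 from -0.42 to 0.0018, GDF15 from -0.78 to 1.87, HEY1 from -0.42 to 0.098, HLA-DMB from -0.36 to 0.75, HLA-DPA1 from -0.13 to 0.73, HSPA5 from -1.62 to 0.20, KIF2A from -0.17 to 0.19, LOX from -0.51 to 0.12, LPCAT3 from -0.086 to 0.75, MCM2 from -0.071 to 0.33, MLX from -0.48 to 0.058, MXD3 from -0.43 to 0.062, MYL9 from -0.44 to 0.11, NBN from -0.087 to 0.19, PHGDH from -1.04 to 0.13, PTGS2 from -1.51 to 0.87, SLC2A1 from -0.071 to 0.39, SLC2A14 from -0.23 to 0.22, TARBP2 from -0.28 to 0.025 and VRK2 from -0.015 to 0.090. SLC2A14 also changed sign with background subtracted (0.036 log2). Apart from the arrays left out, the cause of these movements was not tested. Changes of dim probes are limited by background: with it subtracted 7 of the 76 called genes given here moved by over 1.5 times, among them IL11 (to -3.12 log2) and UHMK1 (to -1.64 log2).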

Other observations

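Some genes outside the lists had large values in siVRK1 against control without being called. MAL2, a protein of apical transport in epithelia, read 8.48 and 8.69 log2 on the siVRK1 arrays, against 7.26 and 7.96 on the control arrays (0.97, adjusted p = 0.05003). MUC1, an epithelial surface mucin, read 7.08 and 7.57 log2 on the siVRK1 arrays, against 6.25 and 6.67 on the control arrays (0.86, adjusted p = 0.0553). Both were higher on each siVRK1 array than on each control array. CLDN12, a claudin, changed by -0.92 (adjusted p = 0.0975), BCAT1, which acts on branched-chain amino acids, by -0.90 (adjusted p = 0.120) and ATP9A, a lipid flippase, by 0.87 log2 (adjusted p = 0.146).

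Of the 94 called genes, 41 belonged to at least 1 list and 53 to none. Of the 53, 26 were higher and 27 lower in siVRK1.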
